A study of Homo sapiens with 5 samples.

Results

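The miR-106b-25 cluster consists of 3 microRNAs (miRNAs), hsa-miR-106b, hsa-miR-93 and hsa-miR-25, that lie together inside the MCM7 gene. Its members were taken by name, as the probes for these 3 miRNAs among the 654 human miRNA probes of the panel. The assay was nCounter, in which color-coded probes are counted one by one and nothing is amplified, on 100 ng of total RNA from 5 established hematopoietic cell lines with 1 sample each. The lines were K562 (erythroleukemia), Meg-01 (megakaryoblastic leukemia), U937 (monocytic), Jurkat (T-cell leukemia) and Raji (B-cell lymphoma). All were unmodified lines with no treatment named. With 1 sample per line no difference was tested, and the 95% intervals cover counting error only.

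MCM7 encodes a subunit of the MCM helicase that unwinds DNA during replication, and the 3 hairpins sit in an intron of its transcript. Clustered hairpins are cut out of the shared primary transcript by Drosha and trimmed by Dicer, after which each mature miRNA is loaded on Argonaute and turned over on its own. The cluster is a paralog of miR-17-92 and miR-106a-363, and these families are known for restraining cell cycle inhibitors and pro-apoptotic genes in blood cells and in tumors.

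In RefSeq (GRCh38.p14) MCM7 spans chr7:100092728-100101397 and is transcribed from the minus strand. Along the transcript the order is MIR106B (chr7:100093993-100094074), MIR93 (chr7:100093768-100093847) and MIR25 (chr7:100093560-100093643). The 3 hairpins fit in 515 bases, with 145 bases between the MIR106B and MIR93 hairpins and 124 bases between those of MIR93 and MIR25. Mature sequences are shown from RefSeq (GRCh38.p14) because the members fall into 2 seed groups, each shared with miRNAs of the paralogous clusters. Capitals mark the seed, bases 2 to 8. Of 17 mature miRNAs looked up, 17 were matched. The probe names list no arm, and the arm usually taken as the mature form was used.
hsa-miR-106b-5p: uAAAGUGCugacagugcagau
hsa-miR-93-5p: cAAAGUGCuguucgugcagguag
hsa-miR-17-5p: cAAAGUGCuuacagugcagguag
hsa-miR-106a-5p: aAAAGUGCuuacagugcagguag
hsa-miR-20a-5p: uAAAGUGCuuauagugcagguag
hsa-miR-20b-5p: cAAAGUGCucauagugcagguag
hsa-miR-25-3p: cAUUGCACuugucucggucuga
hsa-miR-92a-3p: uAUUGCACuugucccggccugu
hsa-miR-363-3p: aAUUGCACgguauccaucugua

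The first 6 sequences share the seed AAAGUGC and the last 3 share AUUGCAC. hsa-miR-106b and hsa-miR-93, although neighbors, differ at 5 of 21 aligned bases, whereas hsa-miR-106b differs from miR-20a at 3 of 21 and hsa-miR-93 from miR-20b at 3 of 23. hsa-miR-25 differs from miR-92a at 4 of 22 bases. How far a member's probe also counts such near relatives was not tested, and the panel itself uses shared probes for miR-106a with miR-17 and for miR-20a with miR-20b. The panel has 0 probes for the other arms of the 3 hairpins.

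The total human count was 66892 in Raji, 94027 in U937, 105224 in K562, 109731 in Meg-01 and 130048 in Jurkat. Levels are normalized counts after subtraction of a background threshold, which in raw counts was 45.9 for Raji, 34.9 for U937, 34.6 for K562, 42.1 for Meg-01 and 35.0 for Jurkat. Raji therefore had the fewest counts and the highest threshold, and low probes were measured least precisely there.

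Lineage miRNAs were checked against the labels. The hematopoietic miR-142-3p was high in every line, from 7436 raw counts in K562 to 32907 in Jurkat. The lymphoid miR-150 was above the threshold only in Jurkat, at 1030 raw counts, while miR-181a, also counted as lymphoid, gave 2551 in Jurkat but also 2417 in Meg-01, and only 171 in the B-cell line Raji, against 238 in U937 and 64 in K562. miR-223, of myeloid cells and megakaryocytes, gave 3269 counts in Meg-01 and 2682 in U937 against 62 in Raji. These high lines carry the matching lineage labels, while miR-223 was also present in K562, at 1684, and in Jurkat, at 732. The vascular and megakaryocytic miR-126 gave 1954 counts in Meg-01 and 1482 in K562, and 31 in Raji. miR-155, linked to B cell activation, reached 254 in Raji and 253 in U937. The erythroid marker miR-451 was at 59 counts in K562 and 129 in Meg-01, and miR-144 at 216 and 981 in the same order, so the erythroleukemia line was not the highest for either. Of 6 miRNAs of epithelium, liver and muscle, 0 exceeded the threshold in Meg-01, Raji, U937 and K562 and 2 did in Jurkat, where their sum was 8.02 normalized counts and the most abundant, miR-200c, gave 44 raw counts.

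The 3 members were detected in all 5 lines, whereas 88 of the 654 human probes were (13.5%). hsa-miR-106b gave 485 raw counts in Meg-01, and 681, 319, 394 and 374 in Jurkat, Raji, U937 and K562, respectively. After normalization and subtraction its level was 328 (95% interval 297 to 362), 520 (480 to 563), 431 (377 to 490), 375 (335 to 417) and 415 (370 to 464) in the same order. hsa-miR-106b was thus highest in Jurkat and lowest in Meg-01, 1.58-fold apart (1.40 to 1.80). Jurkat lay above the next line, Raji, by 1.21-fold (1.04 to 1.41), but without subtraction by 1.09-fold (0.953 to 1.25), within counting error. The other neighbors in the order Raji, K562, U937 and Meg-01 did not differ beyond counting error, whereas Raji exceeded Meg-01 by 1.31-fold (1.11 to 1.54) and K562 exceeded Meg-01 by 1.26-fold (1.09 to 1.47). Both of these differences turned in 3 of the 6 scalings tried, Raji over Meg-01 going down to 0.617 and K562 over Meg-01 to 0.766 with no scaling. The order of the lines below Jurkat was therefore not settled for hsa-miR-106b. With the main scaling the step from Jurkat to Raji rested on the subtraction. With subtraction Jurkat lay above Raji in all 6 scalings, by 1.21-fold to 2.37-fold.

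hsa-miR-93, which carries the same seed, had the lowest counts of the members in every line. It gave 264 raw counts in Meg-01, and 494, 115, 255 and 261 in the other lines in the same order, and its level was 165 (142 to 190), 370 (335 to 406), 109 (77.5 to 146), 230 (198 to 264) and 277 (239 to 318). Jurkat was again the highest line, but Raji was now the lowest, where the count was 2.51 times the threshold. Jurkat exceeded Raji by 3.39-fold (2.50 to 4.83). In the order Jurkat, K562, U937, Meg-01 and Raji, only K562 and U937 did not differ beyond counting error, with a ratio of 1.21 (0.984 to 1.48). With the main scaling, the step between Meg-01 and Raji, 1.51-fold (1.09 to 2.18), rested on the subtraction. Without it the ratio was 1.08 (0.864 to 1.35), and K562 over U937 was then 1.20 (1.01 to 1.43). With subtraction Meg-01 lay above Raji in all 6 scalings, by 1.51-fold to 3.21-fold. The middle of the order also depended on the scaling, as U937 lay above K562 in 2 of the 6 scalings (positive controls and total human counts) and U937 over Meg-01 was 0.992 with no scaling. Without Raji the range narrowed to 2.25-fold, and without subtraction it was 2.19-fold, while it widened to 6.64-fold with no scaling, 5.64-fold with the positive controls and 6.66-fold with the housekeeping mRNAs.

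hsa-miR-25, of the miR-92a seed group, had the highest counts of the members in every line. Its raw counts, in the same order, were 1126, 2664, 1068, 1560 and 2380, and its level was 804 (756 to 854), 2117 (2037 to 2200), 1614 (1514 to 1718), 1591 (1511 to 1674) and 2868 (2753 to 2988). K562 was the highest line and Meg-01 the lowest, 3.57-fold apart (3.32 to 3.84), or 2.26-fold with scaling to the total human counts. Raji and U937, in the middle, did not differ beyond counting error, with a ratio of 1.01 (0.935 to 1.10), and each other step of the order did. Under the other 5 scalings Raji lay below U937, with a ratio down to 0.496 with the housekeeping mRNAs, and with no scaling Raji also fell below Meg-01, at 0.943. The rank of hsa-miR-25 by counts among the human probes lay between 7 in K562 and 14 in Meg-01, against 23 to 32 for hsa-miR-106b and 30 to 50 for hsa-miR-93.

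**Figure D1:**
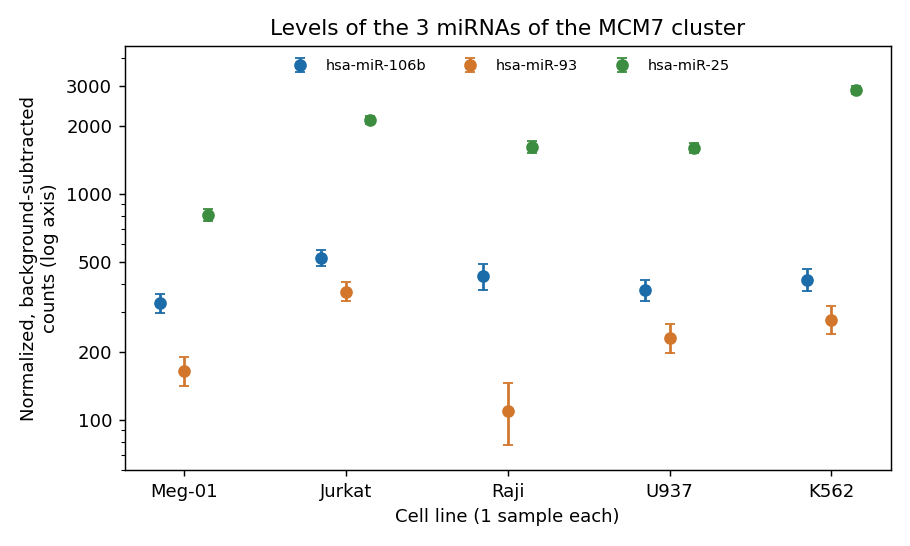
Normalized and background-subtracted counts of hsa-miR-106b, hsa-miR-93 and hsa-miR-25 (vertical log axis) in the 5 cell lines, 1 sample each. Points are the measured levels and bars the 95% interval of counting error. hsa-miR-25 is on top and hsa-miR-93 at the bottom in every line, and hsa-miR-93 dips to 109 in Raji, where the other members do not.

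A range over 2-fold between the highest and the lowest line was found for 2 of the 3 members, hsa-miR-93 and hsa-miR-25, and for 72 of the 88 probes detected in every line (81.8%). The median range of those 88 probes was 4.41-fold with the main scaling. Each member then lay below it, although the interval of hsa-miR-93 reached past it. With the housekeeping mRNAs hsa-miR-93 reached 6.66-fold and hsa-miR-25 4.97-fold, but the median was not computed for the other scalings. Levels between lines depend on the scaling. Over the 6 scalings tried, Jurkat was the highest line for hsa-miR-106b and for hsa-miR-93 in 6, and Raji the lowest for hsa-miR-93 in 6. For hsa-miR-25, K562 was the highest in 4 and Jurkat in 2 (no scaling and positive controls), and Meg-01 was the lowest in 5. The lowest line for hsa-miR-106b was Raji in 3, Meg-01 in 2 and K562 in 1, and its range passed 2-fold with no scaling (2.37), with the positive controls (2.01) and with the housekeeping mRNAs (2.37). A level in total RNA is an average over the culture, in which fewer expressing cells and less RNA per cell cannot be told apart.

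The sum of the 3 members was 3560 normalized counts in K562, 3007 in Jurkat, 2196 in U937, 2154 in Raji and 1297 in Meg-01, a range of 2.75-fold (2.58 to 2.92), but Jurkat, not K562, was the highest line in 3 of the 6 scalings (no scaling, positive controls and total human counts), and the lowest was Meg-01 in 4 and Raji in 2. With scaling to the total human counts the range, Jurkat over Meg-01, was 1.80-fold. As a share of all subtracted human counts it was 3.26% in K562, 3.33% in Jurkat, 2.72% in U937, 2.84% in Raji and 1.92% in Meg-01. Meg-01 therefore had the smallest share. Over raw counts the share in Meg-01 was 1.71% (exact 95% binomial interval 1.63 to 1.79), against 2.95% (2.86 to 3.05) in Jurkat. It was 2.87% (2.77 to 2.97) in K562, 2.35% (2.25 to 2.45) in U937 and 2.25% (2.13 to 2.36) in Raji. Raji thus lay below U937 over raw counts, where their intervals overlapped, and above it after subtraction. hsa-miR-25 made up 62.0% of the sum in Meg-01 and 80.6% in K562, and hsa-miR-93 between 5.07% in Raji and 12.7% in Meg-01.

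Ratios among the members within a line do not depend on the scaling. Since the probes may differ in efficiency, a ratio is not a ratio of molecules, but the same ratio can be set side by side between lines. hsa-miR-25 over hsa-miR-106b was 2.45 in Meg-01 (2.18 to 2.75), 4.07 in Jurkat (3.73 to 4.45), 3.74 in Raji (3.25 to 4.34), 4.25 in U937 (3.77 to 4.80) and 6.91 in K562 (6.14 to 7.81). Meg-01 was low, K562 high and the remaining lines lay between them. Of the 10 pairs of lines, 7 differed beyond counting error, and the 3 that did not were those among Jurkat, Raji and U937. On raw counts 8 pairs differed, Jurkat over Raji being then 1.17 (1.003 to 1.36). K562 exceeded Meg-01 by 2.82-fold (2.39 to 3.34). The raw ratios, 2.32 in Meg-01 and 6.36 in K562, gave 2.74-fold (2.35 to 3.20).

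hsa-miR-106b over hsa-miR-93, the pair with the common seed, was 1.996 in Meg-01 (1.68 to 2.39), 1.41 in Jurkat (1.24 to 1.60), 3.95 in Raji (2.88 to 5.69), 1.63 in U937 (1.36 to 1.96) and 1.50 in K562 (1.25 to 1.80). Raji stood above each of the other lines, by 1.98-fold (1.38 to 2.97) over Meg-01 and 2.81-fold (1.996 to 4.13) over Jurkat. Jurkat, U937 and K562 did not differ from each other beyond counting error, and neither did Meg-01 and U937. The height of the Raji value depended on the background, since the raw ratio there was 2.77 (2.24 to 3.46), yet it also exceeded the raw ratios of the other 4 lines beyond counting error, by 1.51-fold (1.16 to 1.97) over Meg-01. Without Raji the spread of the log2 ratio over the lines fell from 1.49 to 0.50.

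hsa-miR-25 over hsa-miR-93 was 4.88 in Meg-01 (4.18 to 5.74), 5.73 in Jurkat (5.17 to 6.36), 14.8 in Raji (11.0 to 20.9), 6.93 in U937 (5.96 to 8.10) and 10.4 in K562 (8.97 to 12.1). Raji and K562 were the high lines and Meg-01 and Jurkat the low ones, the latter pair being the only 1 of 10 that did not differ beyond counting error. The order of the high lines rested on the subtraction. Raji exceeded K562 by 1.43-fold (1.02 to 2.08) after it, whereas the raw ratios were 9.29 and 9.12, with a quotient of 1.02 (0.807 to 1.29). For other close pairs the call also changed, though not the direction. On raw ratios Jurkat exceeded Meg-01 by 1.26-fold (1.07 to 1.49), beyond counting error. U937 over Jurkat, 1.21 after subtraction (1.01 to 1.46), was 1.13 on raw ratios (0.962 to 1.34), within counting error. Without Raji the spread of the log2 ratio fell from 1.60 to 1.08.

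**Figure D2:**
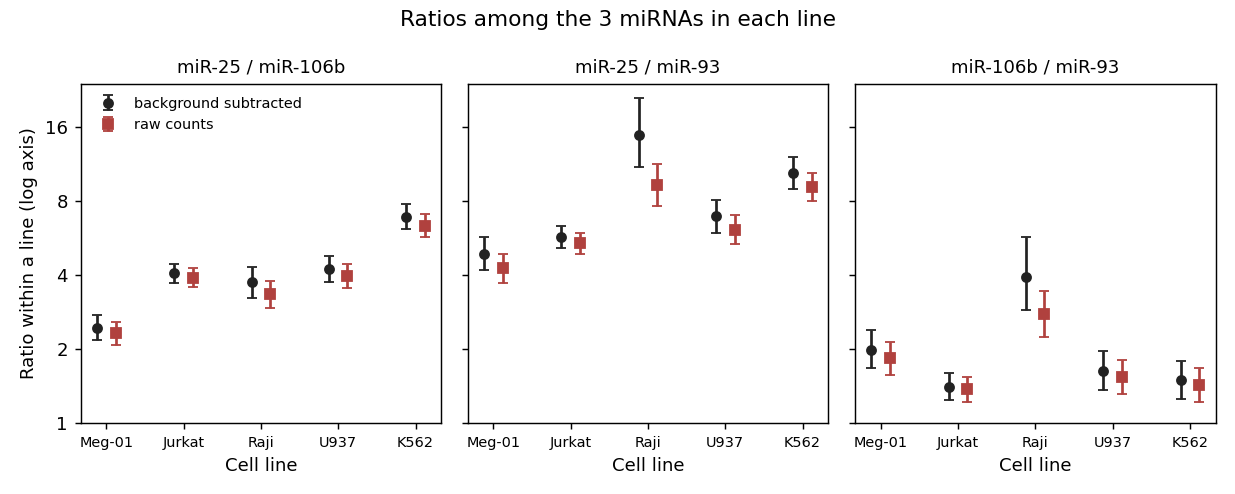
Ratio of each pair of members within each of the 5 lines (vertical log axis), from background-subtracted values (circles) and from raw counts (squares), with 95% intervals of counting error. K562 is highest for hsa-miR-25 over hsa-miR-106b, and Raji is highest for hsa-miR-106b over hsa-miR-93 by either calculation.

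The spread of the log2 ratio over the 5 lines, the highest minus the lowest line, was 1.50 for hsa-miR-25 over hsa-miR-106b, 1.60 for hsa-miR-25 over hsa-miR-93 and 1.49 for hsa-miR-106b over hsa-miR-93. Over all 3828 pairs of the 88 probes detected in every line the median spread was 2.99, with quartiles of 2.03 and 4.57. The 3 pairs of members thus lay below the lower quartile of all pairs. Without subtraction the median of all pairs fell to 1.97 and the lower quartile to 1.24. The members' spreads were then 1.45, 1.12 and 1.01 in the same order, each below the median, but that of hsa-miR-25 over hsa-miR-106b was above the lower quartile.

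**Figure D3:**
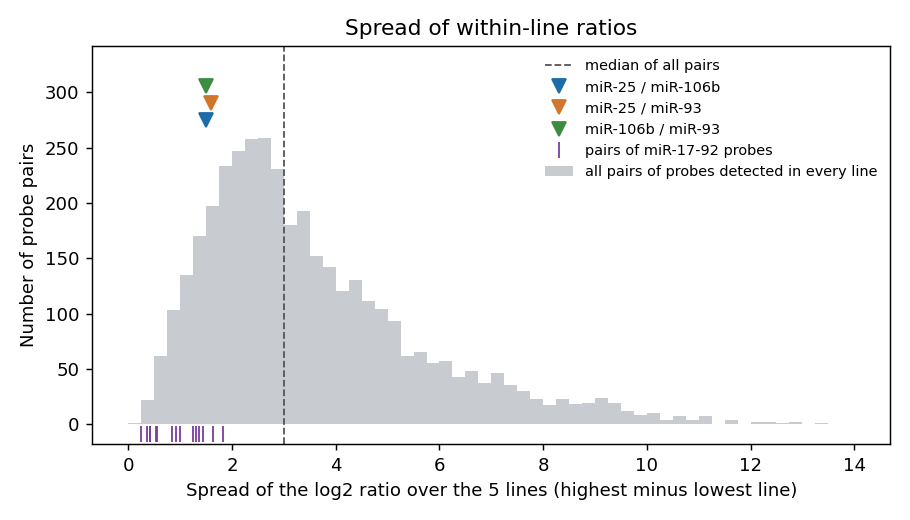
Spread of the log2 ratio over the 5 lines (horizontal axis) for all pairs of the 88 probes detected in every line (bars, number of pairs), with the 3 pairs of members as triangles, the 15 pairs of miR-17-92 probes as ticks under the axis and the median of all pairs, 2.99, as a dashed line. The members' pairs sit at 1.49 to 1.60, left of the median.

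Of the paralogous clusters, miR-17-92 and miR-106a-363, 8 probes were on the panel. Their sum was 50338 normalized counts in K562, 29414 in U937, 23349 in Raji, 21097 in Jurkat and 19323 in Meg-01. K562 was the highest line in all 6 scalings, but the lowest was Raji in 3, Meg-01 in 2 and Jurkat in 1. The log2 ratio of the members' sum to this sum was -3.90 in Meg-01 (-3.97 to -3.83), -2.81 in Jurkat (-2.86 to -2.76), -3.44 in Raji (-3.52 to -3.35), -3.74 in U937 (-3.81 to -3.68) and -3.82 in K562 (-3.88 to -3.77). Since these are different probes, and 3 against 8, the size of the ratio says nothing of molecules. Between lines the ratio was highest in Jurkat, where the members' counts were 14.3% of those of the paralogs. They were 6.71% in Meg-01 and 7.07% in K562, which did not differ beyond counting error, and neither did U937 and K562.

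Within the seed groups the same line stood out. hsa-miR-106b and hsa-miR-93 made up 14.6% of the counts of the 5 probes with their seed in Jurkat and 4.83% in K562, and 9.83% in Meg-01, 9.39% in Raji and 6.95% in U937. hsa-miR-25 made up 14.7% of the counts of the 6 probes with its seed in Jurkat, 6.44% in Meg-01, 10.7% in Raji, 9.12% in U937 and 9.33% in K562. Most of the remainder was miR-20a with miR-20b in the first group and miR-92a in the second. The ratio of miR-92a to hsa-miR-25 counts was 14.4 in Meg-01 and 5.47 in Jurkat. The relatives with few counts were miR-92b, with 81 to 191 raw counts, miR-32, with 48 to 108, and miR-367 and miR-519d, which were not detected in any line.

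The paralogs and the members were set side by side by the line in which each was highest. Of the 6 probes for miRNAs of miR-17-92, 4 also count miRNAs encoded in miR-106a-363 (miR-92a, miR-19b and both shared probes), so they cannot be assigned to either cluster. These 6 probes were highest in K562, and remained so under each of the 6 scalings except that miR-19b was highest in U937 with the positive controls. Among the members this held for hsa-miR-25 alone, under 4 scalings. With the main scaling hsa-miR-25 also shared its lowest line, Meg-01, with these probes, except miR-18a, which was lowest in Raji. For miR-92a, however, Meg-01 and Jurkat were nearly equal, at 11580 and 11581. Over the 6 scalings Meg-01 was the lowest line for hsa-miR-25 in 5, but for miR-92a in 1. For miR-19a, miR-19b and both shared probes Meg-01 was the lowest in 2, and Raji more often. The 15 pairs of miR-17-92 probes had a median spread of 0.92 in the log2 ratio, from 0.23 to 1.82, against 1.49 to 1.60 for the members. Without Raji the median of the 15 pairs was again 0.92, and the members' spreads were 1.50 (hsa-miR-25 over hsa-miR-106b), 1.08 (hsa-miR-25 over hsa-miR-93) and 0.50 (hsa-miR-106b over hsa-miR-93), so the last then lay below it. Without subtraction the median was 0.63, against 1.45, 1.12 and 1.01. The lowest spread of the 15 was that of the shared probes, for which miR-20a with miR-20b over miR-106a with miR-17 stayed between 20.1 and 23.7. The highest of the 15 was that of miR-18a with miR-19b, and miR-18a gave only 69 raw counts in Raji. miR-363, at the end of the X-linked cluster, was detected only in Jurkat, at 732 raw counts against 24 to 31 in the other lines. miR-18b gave 155 counts in Jurkat, 109 in K562 and 43 to 53 in the other lines.

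**Figure D4:**
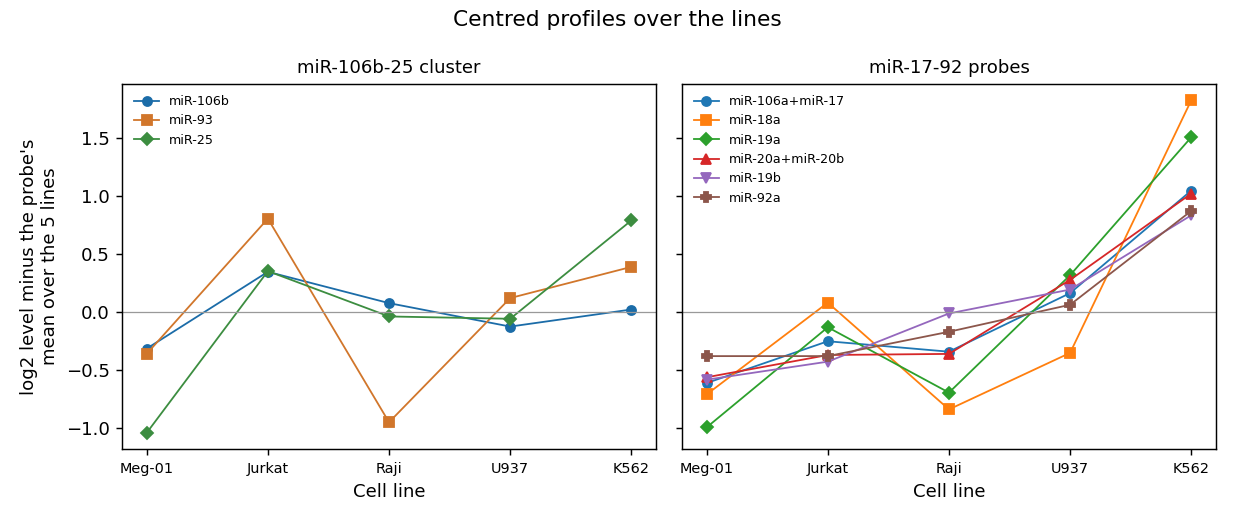
Log2 level of each probe minus its own mean over the 5 lines, for the 3 members (left) and the 6 miR-17-92 probes (right); lines join the points of 1 probe. The miR-17-92 probes peak together in K562, while hsa-miR-106b and hsa-miR-93 peak in Jurkat and hsa-miR-93 falls to -0.95 in Raji.

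Probes with the most similar profile were sought by the root mean square difference of centred log2 levels over the 5 lines. For hsa-miR-93 the nearest were miR-191, at 0.28, miR-140-5p, at 0.34, and miR-590-5p, at 0.46. For hsa-miR-106b they were miR-548b-3p, at 0.17, a probe for several miRNAs that include miR-526a and miR-518d-5p, at 0.19, and miR-140-5p, at 0.23. For hsa-miR-25 they were miR-423-5p, at 0.16, miR-542-3p, at 0.19, and miR-651, at 0.24. Some of these names changed with the background or without Raji. Of the 3 nearest to hsa-miR-93, 1 was kept with no subtraction and 1 without Raji. Of those nearest to hsa-miR-25, 1 and 2 were kept, and of those nearest to hsa-miR-106b, 2 and 2. Several of these were close to background in every line, such as miR-548b-3p with 51 to 76 raw counts and miR-651 with 44 to 56. The other members were not among the nearest. Of 87 other probes, hsa-miR-25 was in place 24 and hsa-miR-93 in place 31 from hsa-miR-106b, hsa-miR-106b in place 11 and hsa-miR-25 in place 15 from hsa-miR-93, and hsa-miR-106b in place 16 and hsa-miR-93 in place 27 from hsa-miR-25. All of these distances, 0.48 to 0.58, were below the median distance to all probes, 0.74 to 0.87.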

How the data were processed

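Total RNA extracted with Trizol was profiled on the nCounter system, 1 sample per line. The authors deposited unprocessed counts for 753 probes in each line. The second deposited table holds signal values of the human probes after background subtraction, without scaling between lines. All per-sample columns were used or mapped (unmatched: 0). The kit version of each sample is not given in the sources used here.

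Following the study's methods, each line was multiplied by a factor that equalizes the geometric mean over 100 miRNAs, those with the highest average count. The threshold of a line, subtracted from its values, lay 2 SD above the average of its 8 negative controls, and a probe not exceeding it counted as undetected. Intervals (95%) combine exact Poisson limits of each count on the log2 scale (method of variance estimates recovery), with threshold and scaling factor held fixed. They cover counting error only, not variation between cultures or lanes, and no test between lines was possible. The functions were tested on simulated counts, the intervals for well-expressed probes with the background known. That test could not show how the intervals hold for low counts or with an estimated threshold.

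The named miRNAs were the members, the probes of the paralogous clusters, the probes sharing a seed, lineage markers and the 3 probes most like each member. The members and lists were chosen with earlier results of these data known. The miR-17-92 pair spreads, the order of the paralogs, the members' sum and each pair of lines under each scaling, and the comparisons of levels between lines and the quartiles of pair spreads without subtraction, the alternatives for the miR-17-92 pairs and the median spread over the 88 probes with the mean of the negative controls were added after seeing the data. Alternatives were 5 other scalings, no subtraction, the mean or the highest negative control as background, the deposited signals and leaving out Raji. Python 3.11.15, numpy 2.4.6, scipy 1.17.1 and matplotlib 3.10.9 were used.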

Additional observations from a re-analysis of the deposited data

How the results depend on the processing

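Scaling moved the ranges between lines most. The fold of the highest over the lowest line of miR-106b, 1.58, became 2.37 with no scaling, 2.01 with the positive controls, 2.37 with the housekeeping mRNAs and 2.25 with the deposited signals. That of miR-93, 3.39, became 6.64, 5.64, 6.66 and 5.20 under the same settings, 2.19 with no subtraction and 2.25 without Raji. That of miR-25, 3.57, became 2.57, 2.45, 4.97 and 2.53, and was 3.26 with the 100 highest miRNAs chosen in each line and 2.26 with the total human counts. That of the members' sum, 2.75, became 2.51 with the 100 highest chosen in each line, 2.33 with the positive controls, 3.82 with the housekeeping mRNAs and 1.80 with the total counts. End lines changed among these folds too. Those of miR-106b were Jurkat over Raji in place of Jurkat over Meg-01. The fold of miR-25 was Jurkat over Raji with no scaling and with the deposited signals, and Jurkat over Meg-01 with the positive controls. That of the sum was Jurkat over Raji with the positive controls and Jurkat over Meg-01 with the total counts. Without Raji, that of miR-93 was Jurkat over Meg-01. The other 20 of 40 folds stayed within the main interval, but in 3 of them an end line changed. The sum gave 2.74 with no scaling and 2.65 with the deposited signals, both Jurkat over Raji in place of K562 over Meg-01, and miR-106b gave 1.54 with the total counts, with K562 lowest in place of Meg-01.

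Ratios within a line do not use the scaling. Of 60 values of single log2 ratios of members, 58 stayed within their interval, and 0 reversed. Without Raji the spread of the log2 ratio was 1.08 for miR-25 over miR-93 and 0.50 for miR-106b over miR-93, and the other 13 of 15 spreads stayed within the interval. The median spread over all pairs, 2.99, was 1.97 with no subtraction, 3.30 with the mean of the negative controls, 3.03 with the highest, 3.22 with the deposited signals and 3.03 without Raji. In all but the first the set of detected probes changes too, and on the 88 probes alone the mean of the negative controls gave 2.30. With no subtraction the log2 ratio of the members' sum to the paralogs was -3.81 in Meg-01 and -3.33 in Raji. For the members' share of all human counts, a binomial interval was set around each subtracted share, on the line's total raw count. It differs from the interval given above for the raw share. Of 20 values of this share under other backgrounds, 8 left it. With the mean of the negative controls as threshold 283 probes were detected in every line. Of the 3 probes most like miR-93, 1 was kept with no subtraction and 1 without Raji, and of those most like miR-25, 1 was kept with no subtraction. Depth limits miR-93 in Raji most, at 115 raw counts over a threshold of 45.9. The cause of these shifts was not tested.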

Other observations

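In the deposited signals, the difference between the raw count and the signal, where the signal was above 0, was a constant of 20.37 in Meg-01, 23.12 in Raji and 20.87 in U937, the mean of the negative controls of the same line to within rounding. In Jurkat it was 16.25, against a mean of 22.75, and in K562 it was 22.75, against a mean of 20.25. The constant used for K562 thus equals the mean of the negative controls of Jurkat. The reason was not tested. The main results start from the raw counts, and only the values given above for the deposited signals carry these constants.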
